A study of Mus musculus with 203 samples.

Results

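The effect of dexamethasone (DEX), a synthetic glucocorticoid, was examined in the airway of mice that had received both house dust mite (HDM) extract and cigarette smoke (CS). The comparison set the 10 airway libraries titled HDM.CS.DEX at 11 weeks against the 10 airway libraries titled HDM.CS at the same time, which is 20 of the 160 RNA-seq libraries taken at 11 weeks, and the libraries were chosen by their titles alone. The series also holds 43 libraries taken at 3 weeks, which did not enter the fit. All mice were female Balb/C animals aged 18 to 20 weeks. Both groups received intranasal HDM on 5 days per week for the first 3 weeks and then 3 times per week to week 11, and both breathed smoke 2 times per day on 5 days per week for 8 weeks, from week 4 to week 11. Only the HDM.CS.DEX mice also received DEX, during week 11. The model stands for an overlap of asthma and chronic obstructive pulmonary disease, and the comparison asks which transcripts of the exposed airway differ after a short course of steroid. The dose and route of DEX are not given in the sources used here, and it is not stated whether the HDM.CS mice received a vehicle. The code of each library, such as X19, names no mouse. The p-values measure the spread between libraries of a group, estimated for each gene over all 160 libraries at 11 weeks together. Airway libraries varied with the parenchyma library of the neighbouring code, and a fit that keeps such neighbours as a block is given where it changes a call.

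Glucocorticoids bind the glucocorticoid receptor, encoded by Nr3c1, which moves to the nucleus and either induces genes through response elements in DNA or restrains inflammatory transcription by factors such as NF-κB and AP-1. They also shorten the life of lymphocytes and eosinophils and lower the number of dendritic cells. In the airway they are the main treatment of allergic asthma, where type 2 cytokines drive eosinophils and mucus, while inflammation induced by smoke, rich in macrophages and neutrophils, is known to respond less.

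Levels are given in CPM, counts scaled to a common library size after TMM normalization, and changes as the log2 fold change (log2FC) of HDM.CS.DEX over HDM.CS from limma-voom. A gene passed, and is said to have risen or fallen, at a Benjamini-Hochberg adjusted p under 0.05. CPM does not take gene length into account, so levels are compared between groups and not between genes. The total of estimated counts per library ranged from 25627320 to 40240733 in HDM.CS and from 23552500 to 33325773 in HDM.CS.DEX. Airway markers were read in each library: the club cell gene Scgb1a1 ranged from 11467 to 29196 CPM in HDM.CS (median 23382) and from 14040.0 to 29494 CPM in HDM.CS.DEX (median 21494), and the ciliated cell factor Foxj1 ranged from 103.7 to 181.1 CPM in HDM.CS (median 129.1) and from 77.1 to 164.9 CPM in HDM.CS.DEX (median 123.3), so both were present in every library. No parenchyma level is set beside them, so their presence does not tell airway from parenchyma libraries. Alveolar, adipose and cardiac muscle genes were present too, and their amounts varied widely within both groups. The summed level of the cardiac muscle list ran from 235 to 1187 CPM in HDM.CS and from 269 to 1654 CPM in HDM.CS.DEX, and that of the adipose list from 25.1 to 386 CPM and from 23.7 to 427 CPM. Among the DEX libraries, X159 was highest in cell cycle genes and X199 in erythroid genes, so the counts below were also computed without both.

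Of 18250 genes tested, 1287 fell with DEX, which is 7.05% of all genes tested, and 410 rose, which is 2.25%. With a log2FC of at most -1 there were 353 falls (1.93%), and with a log2FC of at least 1 there were 19 rises (0.104%). Without X159 and X199 the counts were 1081 lower and 405 higher. The median log2FC was -0.66 among the genes that fell and 0.36 among those that rose, beside -0.0062 over all genes tested. In 0.559% of all genes tested every DEX library lay below every HDM.CS library, and in 11 genes (0.0603%) every DEX library lay above. These shares are the background for the counts of each gene list below. Because the tissue was sequenced in bulk, fewer cells of a type and less RNA per cell cannot be told apart in any result given here.

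**Figure D1:**
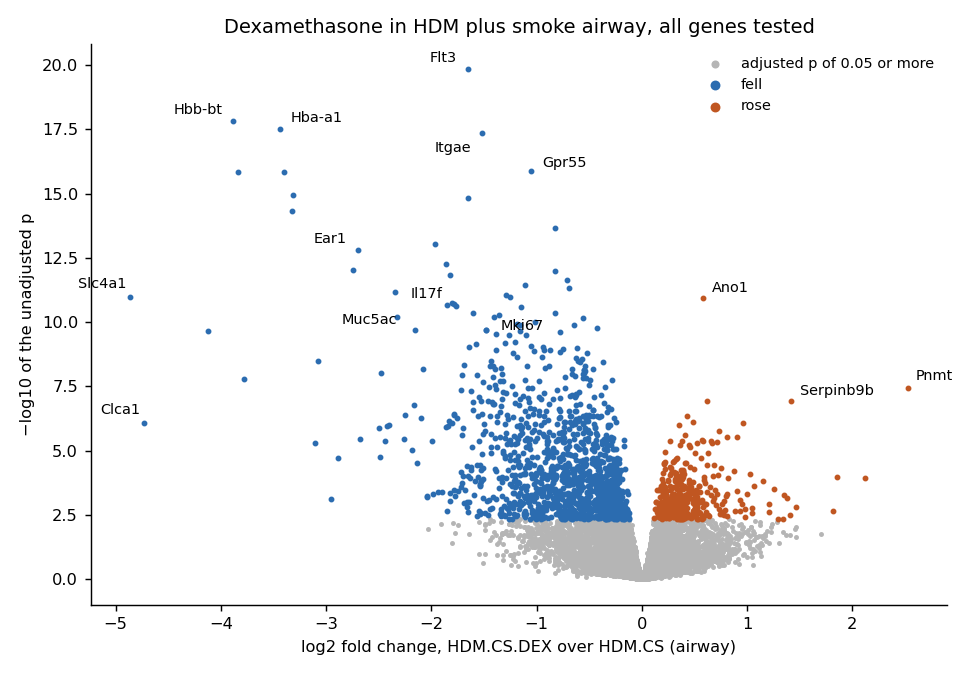
Each point is 1 of the 18250 genes tested, with the log2 fold change of HDM.CS.DEX over HDM.CS on the horizontal axis and −log10 of the unadjusted p on the vertical axis. Blue points fell (1287 genes), orange points rose (410 genes) and grey points did not pass, and the largest changes and the smallest p-values lie on the side of the falls.

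Red blood cell genes made up 7 of the 8 largest falls among genes with a mean of at least 1 CPM in either group. Hbb-bt, a β-globin gene, ranged from 115.3 to 290.1 CPM in HDM.CS (median 178.2) and from 4.68 to 41.8 CPM in HDM.CS.DEX (median 14.3). The groups did not overlap (log2FC -3.88 ± 0.38 SE, adjusted p = 1.42e-14). Hba-a1, an α-globin gene, ranged from 605 to 1724 CPM in HDM.CS (median 1266) and from 36.2 to 386 CPM in HDM.CS.DEX (median 107.6), again with no overlap (log2FC -3.44 ± 0.34 SE, adjusted p = 1.95e-14). Alas2, which encodes the enzyme that starts haem synthesis in erythroid cells, ranged from 31.8 to 87.2 CPM in HDM.CS (median 51.7) and from 0.792 to 20.2 CPM in HDM.CS.DEX (median 3.92), and these groups were separate as well (log2FC -3.84 ± 0.41 SE, adjusted p = 3.89e-13). All 5 genes of the erythroid list fell, with a median log2FC of -3.44, and in each of them the groups were separate. The list includes Hbb-bs (log2FC -3.40, adjusted p = 3.89e-13) and Hba-a2 (log2FC -3.32, adjusted p = 2.66e-12). Outside the list, Slc4a1, the band 3 anion exchanger of the red cell membrane, ranged from 0.435 to 2.43 CPM in HDM.CS (median 1.24) and from 0 to 0.373 CPM in HDM.CS.DEX (median 0.0172). At most 12 counts were seen in any DEX library, so that its log2FC of -4.87 (adjusted p = 8.24e-09) rests on few reads. In PBS.AIR airways, from mice given saline and normal air, Hbb-bt was at 91.1 to 454 CPM (median 243) and Alas2 at 18.6 to 88.5 CPM (median 48.5), ranges that overlapped those of HDM.CS. X199 had the highest summed erythroid level of the DEX libraries at 1892 CPM, still below the lowest HDM.CS library at 3102 CPM, and all 5 genes also fell without X159 and X199. The amount of blood left in each piece of tissue is not recorded in the labels, and its part in the result was not tested.

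The promoters of the α- and β-globin genes are printed because these genes fell together and because each is one of a pair, which limits how reads can be divided between them. The sequences are the 250 bases before the start of each gene, from RefSeq on GRCm38.p6, with the letters CACCC, the box bound by erythroid Krüppel-like factors, or their reverse complement GGGTG, in capitals.
Hba-a1 (chr11:32283422-32283671, plus strand): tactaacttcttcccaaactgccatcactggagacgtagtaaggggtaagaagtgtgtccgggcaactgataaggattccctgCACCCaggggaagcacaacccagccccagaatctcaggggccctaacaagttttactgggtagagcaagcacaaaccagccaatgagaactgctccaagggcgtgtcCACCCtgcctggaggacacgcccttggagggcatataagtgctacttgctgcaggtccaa
Hba-a2 (chr11:32296242-32296491, plus strand): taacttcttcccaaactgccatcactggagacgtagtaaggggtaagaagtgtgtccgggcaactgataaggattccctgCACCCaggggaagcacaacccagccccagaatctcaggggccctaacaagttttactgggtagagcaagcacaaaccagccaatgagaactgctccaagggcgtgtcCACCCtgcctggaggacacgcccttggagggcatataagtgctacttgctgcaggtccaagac
Hbb-bt (chr7:103813924-103814173, minus strand): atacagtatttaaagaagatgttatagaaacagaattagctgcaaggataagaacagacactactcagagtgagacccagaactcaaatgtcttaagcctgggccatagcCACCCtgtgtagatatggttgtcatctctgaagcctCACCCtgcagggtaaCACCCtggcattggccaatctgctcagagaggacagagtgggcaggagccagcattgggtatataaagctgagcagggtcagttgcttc
Hbb-bs (chr7:103827929-103828178, minus strand): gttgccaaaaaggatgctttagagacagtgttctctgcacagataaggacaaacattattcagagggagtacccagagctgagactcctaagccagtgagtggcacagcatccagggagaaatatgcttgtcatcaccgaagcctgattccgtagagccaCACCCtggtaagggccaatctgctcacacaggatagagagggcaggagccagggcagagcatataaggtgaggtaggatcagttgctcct
The windows of Hba-a1 and Hba-a2 share an unbroken run of 247 bases at a shift of 3 bases, whereas the longest run shared by Hbb-bs and Hbb-bt is 14 bases. The CACCC letters occurred in all 5 erythroid windows and in 51.3% of all 27025 windows of the same length, so they are common. Values of single globin genes are uncertain where reads fit both members of a pair, and Balb/C mice are known to carry another β-globin haplotype than the strain of the reference genome.

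Dendritic cell and antigen presentation genes fell together. Flt3, the receptor for the growth factor that maintains dendritic cells, had the smallest p of all genes. It ranged from 9.03 to 16.6 CPM in HDM.CS (median 12.1) and from 2.23 to 6.12 CPM in HDM.CS.DEX (median 4.11), with no overlap (log2FC -1.65 ± 0.15 SE, adjusted p = 2.73e-16). Xcr1, a chemokine receptor of the dendritic cells that present antigen to CD8 T cells, ranged from 5.41 to 12.2 CPM in HDM.CS (median 9.61) and from 1.03 to 5.08 CPM in HDM.CS.DEX (median 2.498), also with no overlap (log2FC -1.81 ± 0.25 SE, adjusted p = 1.30e-08). Itgae, which encodes the CD103 integrin of such dendritic cells and of epithelial T cells, ranged from 13.4 to 21.2 CPM in HDM.CS (median 18.7) and from 3.49 to 10.5 CPM in HDM.CS.DEX (median 6.36), and the groups were separate (log2FC -1.52 ± 0.15 SE, adjusted p = 2.10e-14). The MHC class II genes display peptides to CD4 T cells. H2-Aa, which encodes the α chain of I-A, ranged from 469 to 645 CPM in HDM.CS (median 528) and from 174.8 to 374 CPM in HDM.CS.DEX (median 273), with no overlap (log2FC -1.05 ± 0.16 SE, adjusted p = 2.76e-07). H2-Eb1, which encodes the β chain of I-E, ranged from 265 to 446 CPM in HDM.CS (median 336) and from 107.8 to 245 CPM in HDM.CS.DEX (median 150.98), likewise without overlap (log2FC -1.19 ± 0.19 SE, adjusted p = 6.40e-07). Of the 11 genes of the antigen presentation and dendritic cell list, 10 fell and none rose, with a median log2FC of -0.98. The exception was Zbtb46, a transcription factor of classical dendritic cells, at a log2FC of -0.038 (adjusted p = 0.894). Groups were separate in 5 of the 11, with DEX lower, beside 0.559% of all genes tested. The count was 10 without X159 and X199 and also by edgeR and DESeq2. In PBS.AIR airways H2-Aa was at 283 to 549 CPM (median 368), between the levels of the other groups.

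The promoters of H2-Aa and H2-Eb1 are printed because these genes fell together and are known to carry a Y box, a CCAAT letter group that, with the neighbouring X box, recruits the class II transactivator. Letters matching CCAAT or its reverse complement ATTGG are in capitals in the 250 bases before each start (RefSeq, GRCm38.p6).
H2-Aa (chr17:34287824-34288073, minus strand): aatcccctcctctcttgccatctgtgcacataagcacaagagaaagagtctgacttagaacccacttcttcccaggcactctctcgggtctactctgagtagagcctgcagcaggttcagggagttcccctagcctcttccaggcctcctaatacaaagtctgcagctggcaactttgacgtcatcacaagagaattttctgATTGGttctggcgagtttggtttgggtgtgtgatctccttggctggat
H2-Eb1 (chr17:34305617-34305866, plus strand): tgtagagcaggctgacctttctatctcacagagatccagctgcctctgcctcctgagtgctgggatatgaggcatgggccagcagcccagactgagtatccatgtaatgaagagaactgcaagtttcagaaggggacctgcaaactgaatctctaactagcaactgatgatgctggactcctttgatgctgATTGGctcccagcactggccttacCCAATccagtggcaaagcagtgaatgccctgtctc
The letters were found in 5 of the 8 windows of this list that could be matched and in 34.5% of all windows. Ciita, which encodes the class II transactivator itself, fell with a log2FC of -0.98 (adjusted p = 3.05e-05).

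Genes of B cells and T cells fell, and in all but 1 of them the libraries of the groups overlapped. Of 10 B cell genes 9 fell (median log2FC -1.04). Cr2, the complement receptor of mature B cells, ranged from 18.8 to 65.9 CPM in HDM.CS (median 32.3) and from 3.55 to 27.7 CPM in HDM.CS.DEX (median 9.43), and every DEX library was below the HDM.CS median although the ranges met (log2FC -1.78 ± 0.34 SE, adjusted p = 3.90e-05). Blk, a B cell kinase, and Cd22, an inhibitory B cell receptor, also fell (log2FC -1.13, adjusted p = 5.62e-04, and log2FC -0.56, adjusted p = 0.00178). Of 14 T cell genes 9 fell (median log2FC -0.80). Icos, a co-stimulatory receptor of activated T cells, ranged from 13.7 to 26.9 CPM in HDM.CS (median 16.7) and from 3.97 to 11.9 CPM in HDM.CS.DEX (median 8.23), and here the groups were separate (log2FC -1.19 ± 0.17 SE, adjusted p = 5.69e-08). Ctla4, an inhibitory receptor of activated and regulatory T cells, ranged from 4.75 to 12.3 CPM in HDM.CS (median 9.20) and from 1.32 to 7.76 CPM in HDM.CS.DEX (median 3.71), with overlap (log2FC -1.17 ± 0.24 SE, adjusted p = 2.10e-04). The T cell receptor subunits Cd3e and Cd3g had overlapping ranges (log2FC -0.96, adjusted p = 0.00178, and log2FC -0.96, adjusted p = 0.00187). Cd8a, the co-receptor of cytotoxic T cells, did not pass (log2FC -0.25, adjusted p = 0.754).

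The number of T cell genes that fell depended on the libraries and the test. It was 4 without X159 and X199, 5 when X157, X119 or X159 was left out, 2 by edgeR and 3 by DESeq2. For B cell genes it was 6 without X159 and X199 and 5 by edgeR and by DESeq2. The summed T cell level was 68.5 to 300.1 CPM in the DEX libraries and 179.3 to 403.1 CPM in HDM.CS. The 3 DEX libraries highest in T cell genes, X39, X59 and X179, were also 3 of the 4 highest in adipose genes and the 3 highest in cardiac muscle genes, and the part of this in the T cell values was not tested.

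Among antibody-secreting cell genes 5 of 12 fell (median log2FC -0.63). Irf4, a transcription factor needed for plasma cells, ranged from 20.01 to 59.3 CPM in HDM.CS (median 38.996) and from 11.8 to 30.4 CPM in HDM.CS.DEX (median 17.9), and all DEX libraries were below the HDM.CS median (log2FC -1.03 ± 0.16 SE, adjusted p = 3.98e-07). Mzb1, a chaperone that helps to assemble antibodies, ranged from 44.95 to 215 CPM in HDM.CS (median 110.4) and from 32.8 to 84.6 CPM in HDM.CS.DEX (median 54.2), with overlap (log2FC -1.11 ± 0.24 SE, adjusted p = 3.59e-04). Derl3, an endoplasmic reticulum protein of secretory cells, and Xbp1, the factor that builds the secretory machinery, fell as well (log2FC -0.88, adjusted p = 1.31e-04, and log2FC -0.27, adjusted p = 0.0169). Ighm did not pass (log2FC -0.60, adjusted p = 0.382), and reads of immunoglobulin genes are uncertain because they come from rearranged segments. Cytotoxic lymphocyte genes fell in 4 of 8 cases (median log2FC -0.74), among them the natural killer receptors Klrd1 and Klrb1c (log2FC -1.07, adjusted p = 0.00151, and log2FC -0.69, adjusted p = 0.00501), the factor Eomes (log2FC -0.99, adjusted p = 0.0262) and the granule protein Nkg7 (log2FC -0.74, adjusted p = 0.0457). That count was 2 without X159 and X199, and 2 on leaving out X157, X17, X159, X199 or X79. Of 7 lymphoid tissue genes only Cxcr5, the receptor that guides B cells into follicles, fell (log2FC -1.16, adjusted p = 0.00130). Of the immature T cell genes 2 could be tested and Dntt, which adds bases at antigen receptor joints, passed. It had at most 1 count in any DEX library and at most 11 in any HDM.CS library, so no fold is given.

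Mucus genes, which goblet cells express, fell in 7 of 11 cases. Muc5ac, the gel-forming mucin that goblet cells make in allergic airways, ranged from 11.1 to 102.1 CPM in HDM.CS (median 23.998) and from 3.48 to 11.6 CPM in HDM.CS.DEX (median 6.36), and the ranges met only at their ends (log2FC -2.16 ± 0.32 SE, adjusted p = 8.51e-08). Clca1, a secreted regulator of chloride channels and a marker of goblet cells, ranged from 3.63 to 476 CPM in HDM.CS (median 59.2) and from 0.0906 to 16.3 CPM in HDM.CS.DEX (median 3.08). Its HDM.CS libraries spread widely and overlapped the DEX libraries, of which all 10 were below the HDM.CS median (log2FC -4.73 ± 0.92 SE, adjusted p = 6.76e-05). Itln1, a lectin of mucus cells, and Tff2, a trefoil peptide packed with mucins, fell too (log2FC -1.14, adjusted p = 8.39e-05, and log2FC -1.26, adjusted p = 6.36e-04). None of the 11 mucus genes rose, and all had a log2FC below 0 (median -0.95). The other 4, which did not pass, were Agr2, Spdef, Foxa3 and Bpifb1. In PBS.AIR airways Muc5ac was at 3.60 to 40.2 CPM (median 5.74), which overlapped the DEX range, while Itln1 was at 0.642 to 23.1 CPM (median 2.21) in PBS.AIR and at 6.03 to 36.3 CPM (median 14.1) with DEX.

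Of the type 2 cytokines and receptors 13 were tested and 2 fell (median log2FC -0.28), beside 7.05% of all genes tested. Il1rl1, the receptor for interleukin 33 on mast cells and type 2 lymphocytes, ranged from 5.96 to 11.97 CPM in HDM.CS (median 8.93) and from 3.65 to 8.04 CPM in HDM.CS.DEX (median 4.81), with overlap (log2FC -0.81 ± 0.17 SE, adjusted p = 2.24e-04). Gata3, the transcription factor of type 2 lymphocytes, had a log2FC of -0.52 (adjusted p = 0.00802), and it did not pass without X159. The cytokines Il4, Il5 and Il13 did not pass (log2FC -0.98, adjusted p = 0.221 for Il13). Ear1 and Ear2, ribonucleases of eosinophils and also of lung macrophages, fell. Ear1 ranged from 26.7 to 77.8 CPM in HDM.CS (median 51.7) and from 2.95 to 18.5 CPM in HDM.CS.DEX (median 8.24), with no overlap (log2FC -2.70 ± 0.33 SE, adjusted p = 2.21e-10). Ear2 ranged from 81.9 to 238 CPM in HDM.CS (median 156.02) and from 20.01 to 74.8 CPM in HDM.CS.DEX (median 48.2), also with no overlap (log2FC -1.85 ± 0.26 SE, adjusted p = 1.44e-08), but these genes are close copies and reads may be shared between them. Siglecf, a surface lectin of eosinophils and alveolar macrophages, overlapped between groups (log2FC -1.05, adjusted p = 7.68e-04). These 3 were the members of the eosinophil list that fell, of 9 tested. Prg2, the major basic protein of eosinophil granules, and the eotaxins Ccl11 and Ccl24 did not pass. Of 10 mast cell and basophil genes none fell and Hdc, which makes histamine, rose (log2FC 0.42, adjusted p = 0.0247). Hdc did not pass without X159 and X199, or on leaving out X157, X17, X159 or X19.

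The interleukin 17 cytokines, which call neutrophils to the airway, were separate between groups. Il17f ranged from 4.38 to 14.9 CPM in HDM.CS (median 7.18) and from 1.10 to 3.92 CPM in HDM.CS.DEX (median 2.35) (log2FC -1.79 ± 0.25 SE, adjusted p = 1.31e-08). Il17a ranged from 8.84 to 26.2 CPM in HDM.CS (median 13.96) and from 2.81 to 7.04 CPM in HDM.CS.DEX (median 5.52) (log2FC -1.57 ± 0.26 SE, adjusted p = 2.14e-06). In PBS.AIR both were close to 0, with Il17f at 0 to 0.167 CPM (median 0.0476) and Il17a at 0 to 0.709 CPM (median 0.0685), below every DEX library. They were the 2 of 9 neutrophil chemokine and growth factor genes that fell. Of 10 neutrophil granule and alarmin genes none passed in either direction. S100a9, a calprotectin subunit that neutrophils carry, ranged from 122.97 to 369 CPM in HDM.CS (median 207) and from 153.5 to 358 CPM in HDM.CS.DEX (median 239.7) (log2FC 0.14, adjusted p = 0.861), and Ltf, the lactoferrin gene, had a log2FC of -0.66 (adjusted p = 0.309). Mean Ltf was 652 CPM in PBS.AIR airways, 601 CPM in HDM.CS airways and 18.1 CPM in PBS.AIR parenchyma. Whether Ltf stands for neutrophils in these airways was not tested. Cxcl1, a neutrophil attractant, had a log2FC of 0.034 (adjusted p = 0.967).

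Monocyte chemokines and their receptors fell in 5 of 12 cases, with a median log2FC of -0.59. Ccl8, a chemokine of monocytes and type 2 T cells, ranged from 22.4 to 143.2 CPM in HDM.CS (median 92.7) and from 11.6 to 43.5 CPM in HDM.CS.DEX (median 30.7). The lowest HDM.CS library, X57, lay inside the DEX range and the others above it (log2FC -1.71 ± 0.28 SE, adjusted p = 2.14e-06). Ccr2, the receptor with which monocytes leave the marrow, and Ccl9, a chemokine made by macrophages, fell with overlap (log2FC -0.85, adjusted p = 5.32e-04, and log2FC -0.90, adjusted p = 8.00e-04). Ccl2, the main ligand of CCR2, did not pass (log2FC 0.67, adjusted p = 0.124). Of 8 genes of the CXCR3 axis 4 fell, among them the receptor Cxcr3 (log2FC -0.93, adjusted p = 1.63e-04), its ligand Cxcl9 (log2FC -1.65, adjusted p = 0.0303) and Ifng, or interferon gamma (log2FC -1.12, adjusted p = 0.0340). Without X159 and X199 this count was 1, and it was 1 without X17 or X119 and 2 on leaving out X157, X37, X159, X19 or X79. Of 11 type I interferon response genes 2 fell, beside 7.05% of all genes tested. They were Rsad2 and Oasl2, both antiviral effectors (log2FC -1.46, adjusted p = 5.22e-06, and log2FC -0.59, adjusted p = 0.0142). The count was 7 when X39 was left out.

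**Figure D2:**
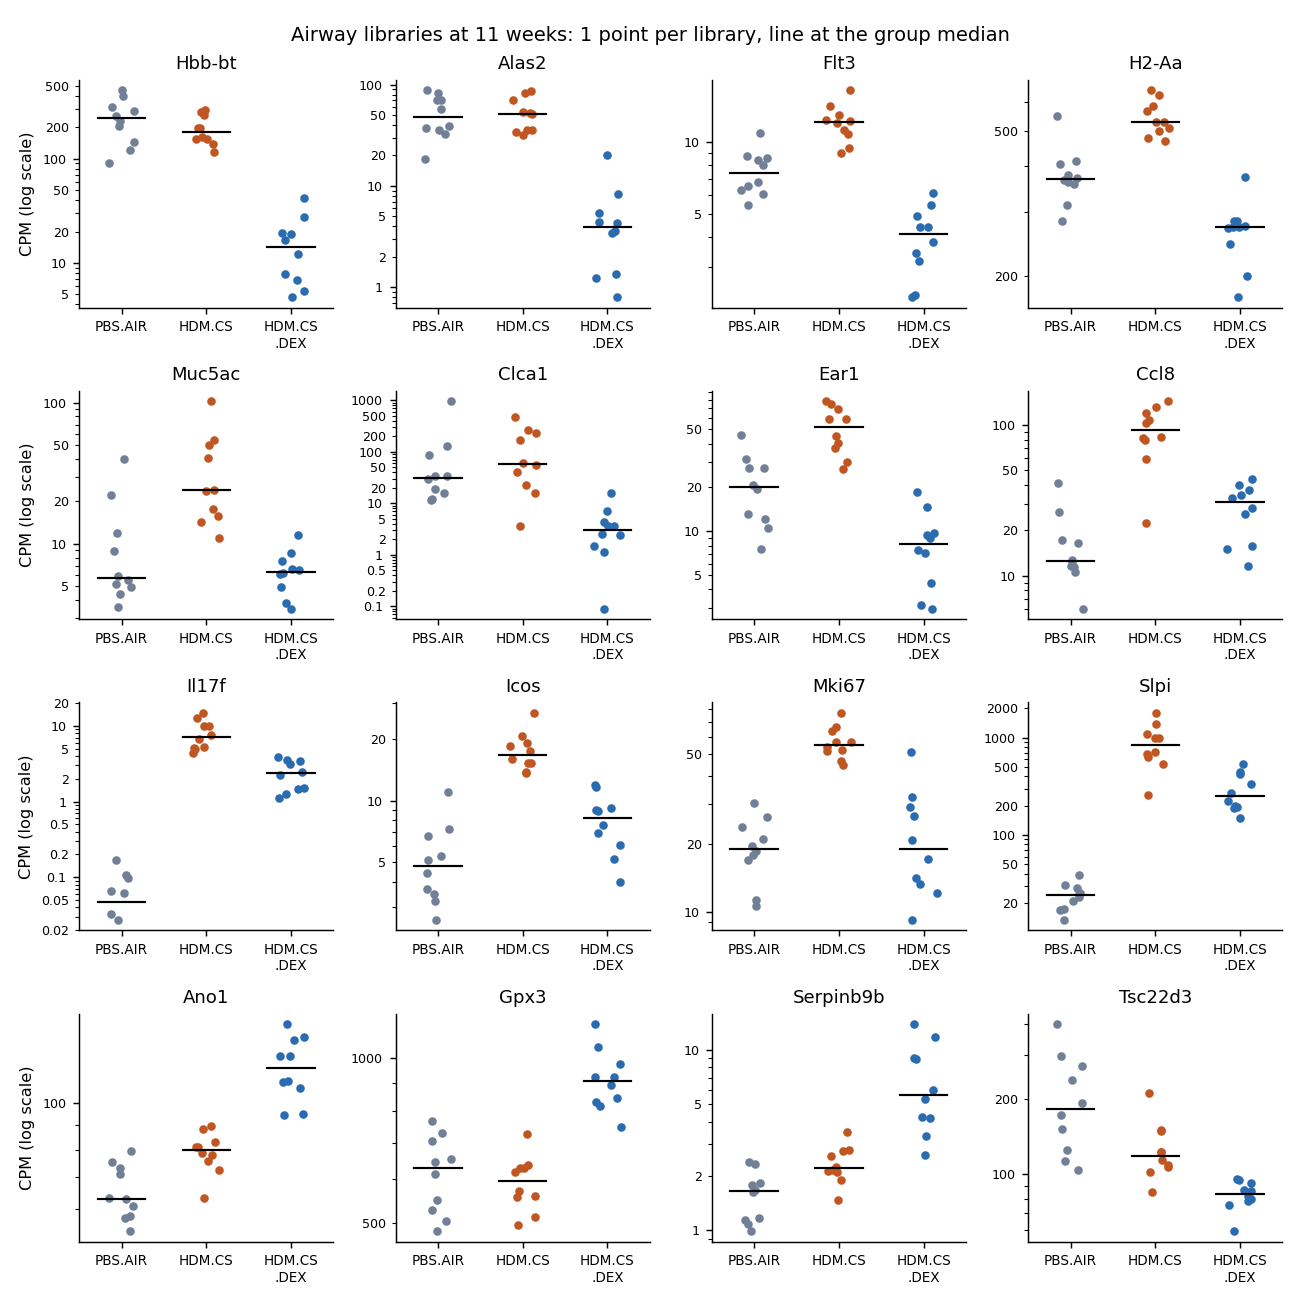
Each panel shows a gene with 1 point for each airway library at 11 weeks, on a logarithmic CPM axis, for PBS.AIR, HDM.CS and HDM.CS.DEX, and the line marks the group median. Points at 0 CPM (Il17f in PBS.AIR) cannot be drawn on this axis. The HDM.CS and HDM.CS.DEX points are separate for Hbb-bt, Alas2, Flt3, H2-Aa, Ear1, Il17f, Icos, Ano1 and Gpx3, and they overlap for the other genes shown.

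Of 10 macrophage genes 2 fell, beside 7.05% of all genes tested. They were Csf1r, the receptor of macrophage colony-stimulating factor (log2FC -0.29, adjusted p = 0.00919), and Clec7a, the β-glucan receptor Dectin-1. Clec7a ranged from 404 to 674 CPM in HDM.CS (median 506) and from 177.4 to 451 CPM in HDM.CS.DEX (median 357), with overlap (log2FC -0.73 ± 0.22 SE, adjusted p = 0.0214). Without X159 and X199 the count was 1, and Csf1r did not pass. The summed macrophage level was 11972 to 18619 CPM in HDM.CS and 13495 to 17997 CPM in HDM.CS.DEX. Of 10 genes typical of lipid-laden macrophages in smoke-exposed lungs, Spp1 and Mmp12 fell and Cd36 rose, although Mmp12 did not pass without X159 and X199 or without X77. Spp1, the gene of osteopontin, ranged from 263 to 952 CPM in HDM.CS (median 476) and from 74.8 to 386 CPM in HDM.CS.DEX (median 254) (log2FC -1.12 ± 0.30 SE, adjusted p = 0.00534). Mmp12, the elastase of macrophages, ranged from 568.01 to 1685 CPM in HDM.CS (median 871) and from 258 to 752 CPM in HDM.CS.DEX (median 495) (log2FC -0.97 ± 0.30 SE, adjusted p = 0.0203). In both genes all DEX libraries were below the HDM.CS median, the ranges overlapped and PBS.AIR was far lower, with Mmp12 at 10.9 to 42.6 CPM (median 27.4). Cd36, a scavenger receptor of macrophages and endothelium, ranged from 1053 to 1301 CPM in HDM.CS (median 1159) and from 1101 to 1598 CPM in HDM.CS.DEX (median 1484) (log2FC 0.30 ± 0.074 SE, adjusted p = 0.00211). The ranges of Cd36 overlapped, with 9 of 10 DEX libraries above the HDM.CS median. Among 9 genes of alternative macrophage activation Retnla, Arg1 and Mgl2 fell (log2FC -1.25, adjusted p = 0.00466, log2FC -1.47, adjusted p = 0.0152, and log2FC -0.79, adjusted p = 0.0222), and Mgl2 did not pass without X159 and X199. Spi1, the myeloid transcription factor PU.1, ranged from 31.98 to 72.3 CPM in HDM.CS (median 50.9) and from 27.1 to 54.3 CPM in HDM.CS.DEX (median 41.6) and did not pass (log2FC -0.38 ± 0.15 SE, adjusted p = 0.0960). Of the genes studied with it, Itgax, the CD11c integrin, and Il1rn, the interleukin 1 receptor antagonist, passed (log2FC -0.71, adjusted p = 0.0199, and log2FC -0.67, adjusted p = 0.0430), while Ptafr, the receptor of platelet-activating factor, did not (log2FC -0.39, adjusted p = 0.0745). Spi1 and Ptafr both passed, lower with DEX, with sets of 20 library codes as a block (adjusted p = 0.0270 and 0.0490). Il1rn no longer passed on leaving out any of 10 libraries. Gpr55, a lipid receptor, was among the 5 falls with the smallest p-values. It ranged from 7.95 to 15.6 CPM in HDM.CS (median 10.4) and from 3.39 to 7.499 CPM in HDM.CS.DEX (median 5.24), with no overlap (log2FC -1.05 ± 0.11 SE, adjusted p = 3.89e-13).

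Of 10 genes of the interleukin 1 and TNF list Il1rn and Casp1, the protease that activates interleukin 1β, fell (log2FC -0.32, adjusted p = 0.0339), and Il1b, Tnf, Il6 and Ptgs2 did not pass. The count was 0 on leaving out X137, X17, X37, X77, X119 or X139, and 1 on leaving out X197, X159, X39, X59, X79 or X99. C3, the central complement protein, was the member of 6 acute phase genes that fell (log2FC -0.42, adjusted p = 0.00872), beside 7.05% of all genes tested. Of the aryl hydrocarbon receptor and NRF2 antioxidant lists, Ahrr, the repressor of the aryl hydrocarbon receptor, and Slc7a11, the cystine transporter controlled by NRF2, fell (log2FC -0.79, adjusted p = 7.97e-04, and log2FC -0.76, adjusted p = 0.00274). Each was the only member of its list to fall, of 6 and 11 genes, beside 7.05% of all genes tested. Mean airway Slc7a11 was 26.8 CPM with smoke and no HDM, 76.8 CPM with HDM in air and 66.8 CPM in HDM.CS. Alox5ap, which presents arachidonic acid to 5-lipoxygenase, was the member of 10 bronchomotor and lipid mediator genes that fell (log2FC -0.36, adjusted p = 0.0381), beside 7.05% of all genes tested. Alox5ap was not past the threshold by edgeR, DESeq2, with quality weights, in the fits of fewer groups, with neighbouring codes as a block (adjusted p = 0.0503) or without X159 and X199. The count in this list was 0 on leaving out X117, X197, X77, X97, X159, X179, X39, X59 or X79, and 2 without X137 or X157.

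Proliferation genes fell together. Of 15 cell cycle genes 14 fell and none rose, with a median log2FC of -1.22, and the exception was Cdc20 (log2FC -0.60, adjusted p = 0.0614). Mki67, the Ki-67 antigen of dividing cells, ranged from 44.7 to 76.6 CPM in HDM.CS (median 55.4) and from 9.20 to 51.1 CPM in HDM.CS.DEX (median 19.1) (log2FC -1.48 ± 0.22 SE, adjusted p = 8.60e-08). Top2a, which untangles DNA before division, ranged from 21.7 to 36.3 CPM in HDM.CS (median 28.3) and from 6.08 to 31.5 CPM in HDM.CS.DEX (median 9.61) (log2FC -1.41 ± 0.24 SE, adjusted p = 2.55e-06). Aurkb, a mitotic kinase, ranged from 3.18 to 6.67 CPM in HDM.CS (median 4.55) and from 1.001 to 4.32 CPM in HDM.CS.DEX (median 1.47) (log2FC -1.39 ± 0.21 SE, adjusted p = 3.60e-07), and Rrm2, which makes deoxynucleotides, fell too (log2FC -1.32, adjusted p = 7.45e-06). In each of these 4 genes X159, the highest DEX library, was the only DEX library inside the HDM.CS range. The summed cell cycle level of X159 was 236.1 CPM, against 67.5 to 120.2 CPM in the other DEX libraries and 148.8 to 257.7 CPM in HDM.CS. Without X159 and X199 all 15 genes fell. In PBS.AIR Mki67 was at 10.6 to 30.4 CPM (median 19.1), beside a DEX median of 19.1 CPM.

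The promoters of Mki67 and Top2a are printed to show the repeated CCAAT letters, with ATTGG as the reverse complement, that are known from genes of the late cell cycle. Matches are in capitals in the 250 bases before each start (RefSeq, GRCm38.p6).
Mki67 (chr7:135716380-135716629, minus strand): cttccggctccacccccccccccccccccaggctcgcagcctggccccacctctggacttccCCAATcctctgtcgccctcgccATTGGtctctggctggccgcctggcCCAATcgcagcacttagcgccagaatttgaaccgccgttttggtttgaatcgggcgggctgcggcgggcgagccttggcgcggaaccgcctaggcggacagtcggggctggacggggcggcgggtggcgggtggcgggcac
Top2a (chr11:99024190-99024439, minus strand): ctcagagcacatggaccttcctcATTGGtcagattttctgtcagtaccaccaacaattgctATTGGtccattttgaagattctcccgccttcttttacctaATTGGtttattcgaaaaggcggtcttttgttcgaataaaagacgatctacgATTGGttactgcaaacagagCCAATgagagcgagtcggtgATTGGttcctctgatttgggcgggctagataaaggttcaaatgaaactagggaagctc
Of the 12 cell cycle windows that could be matched, 11 held these letters, against 34.5% of all windows and 39.4% of those of genes that fell with DEX. The CHR element of cell cycle genes, searched as TTTGAA on both strands, occurred in 5 of the 12 and in 16.3% of all windows.

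**Figure D3:**
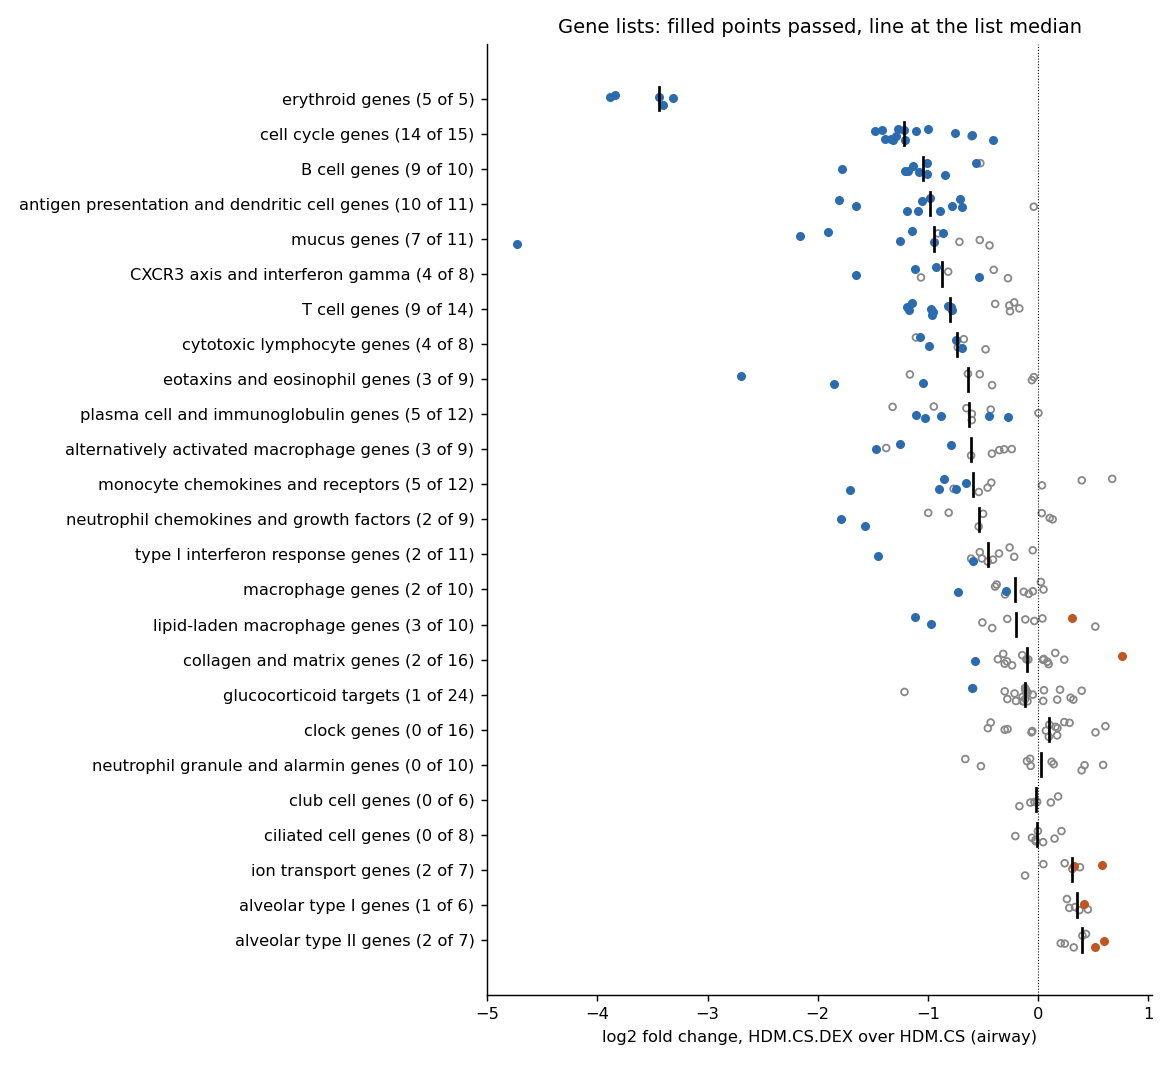
Each point is a gene of the list named on the vertical axis, with its log2 fold change of HDM.CS.DEX over HDM.CS on the horizontal axis. Filled points passed (blue fell, orange rose), open points did not, the line is the median of the list, and the numbers in parentheses give how many of the tested genes passed. The erythroid list lies farthest to the left, at a median of -3.44, and the alveolar lists lie to the right of 0.

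Of the 410 rises, 19 had a log2FC of at least 1. Ano1, a calcium-activated chloride channel of airway epithelium and smooth muscle, had the smallest p among the 410. It ranged from 63.3 to 89.5 CPM in HDM.CS (median 79.8) and from 94.6 to 146.3 CPM in HDM.CS.DEX (median 118.2), with no overlap (log2FC 0.58 ± 0.078 SE, adjusted p = 8.29e-09). Gpx3, a secreted glutathione peroxidase, ranged from 495 to 724 CPM in HDM.CS (median 596) and from 746 to 1150.5 CPM in HDM.CS.DEX (median 905), also with no overlap (log2FC 0.62 ± 0.11 SE, adjusted p = 1.41e-05). Pnmt, which makes adrenaline from noradrenaline and is known to be induced by glucocorticoids, ranged from 0.0602 to 0.171 CPM in HDM.CS (median 0.109) and from 0.263 to 1.68 CPM in HDM.CS.DEX (median 0.760). The groups were separate, but no HDM.CS library had more than 6 counts (log2FC 2.53 ± 0.43 SE, adjusted p = 5.61e-06). Wnt9a, a Wnt ligand, rose slightly with overlap through X97 (log2FC 0.43, adjusted p = 4.21e-05). Serpinb9b, a relative of the granzyme inhibitor Serpinb9 whose close copies may share reads, ranged from 1.48 to 3.51 CPM in HDM.CS (median 2.21) and from 2.63 to 13.9 CPM in HDM.CS.DEX (median 5.65), and all DEX libraries were above the HDM.CS median (log2FC 1.42 ± 0.25 SE, adjusted p = 1.43e-05). S100a14, an epithelial calcium-binding protein, and Msln, a marker of mesothelium, rose as well (log2FC 0.96, adjusted p = 6.52e-05, and log2FC 0.93, adjusted p = 0.0135). X159 held the highest summed mesothelial level, at 197.7 CPM, and Msln did not pass without X159 and X199. The other large rises were in weakly expressed genes, Mt3, Adprhl1, Sphkap, Cers3 and Ccdc42, with log2FC of 1.38, 1.30, 1.05, 1.02 and 1.00, all at medians under 3 CPM in both groups. Adprhl1 did not pass when any of 15 libraries was left out or with neighbouring codes as a block (adjusted p = 0.0716), nor Mt3 without X159 and X199.

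Genes of club, ciliated and basal cells did not pass. None of 6 club cell, 8 ciliated cell or 5 basal cell genes rose or fell, and the log2FC of Scgb1a1 was -0.032 ± 0.16 SE (adjusted p = 0.945). Some alveolar genes rose. Sftpb, surfactant protein B, ranged from 1307 to 2174 CPM in HDM.CS (median 1662) and from 1578 to 3438 CPM in HDM.CS.DEX (median 2464) (log2FC 0.60 ± 0.16 SE, adjusted p = 0.00456), and Napsa, the protease that processes it, and Aqp5, a water channel of type I cells, rose too (log2FC 0.52, adjusted p = 0.0398, and log2FC 0.42, adjusted p = 0.0115). These were 2 of 7 type II and 1 of 6 type I genes, beside 2.25% of all genes tested, while all 13 had a log2FC above 0. With quality weights, where more of all genes rose too, 5 type II and 5 type I genes rose. In HDM.AIR airways 6 type II and 4 type I genes rose with DEX, beside 12.5% of all genes tested. The same numbers rose in PBS.AIR airways, beside 8.03%. In HDM.CS parenchyma 3 and 1 rose, beside 2.46%. The summed type II level was 12900.0 to 22959 CPM in HDM.CS and 15361 to 28017 CPM in HDM.CS.DEX, and its part in other results was not tested. Napsa did not pass without X159 and X199, on leaving out any of 12 libraries, in airway groups only or with neighbouring codes as a block (adjusted p = 0.0604). Scnn1b, a subunit of the epithelial sodium channel, rose (log2FC 0.33, adjusted p = 0.0473) and with Ano1 made 2 of 7 ion transport genes, of which only Ano1 passed without X159 and X199, on leaving out any of 11 libraries or with neighbouring codes as a block (adjusted p = 0.0640 for Scnn1b). Of 16 matrix genes Tnc, tenascin C, rose and Col15a1, a basement membrane collagen, fell (log2FC 0.76, adjusted p = 0.0352, and log2FC -0.57, adjusted p = 0.0159). Over all genes tested 2.25% rose and 7.05% fell. The highest DEX library in Tnc was X159, and Tnc did not pass without X159 and X199 or on leaving out any of 10 libraries. The count of falls in this list was 0 by DESeq2, 2 without X97 or X99, 3 without X159, and 2 without both X159 and X199 or with quality weights. Myh7, a cardiac myosin, rose as the only one of 12 cardiac muscle genes (log2FC 0.41, adjusted p = 0.0276), beside 2.25% of all genes tested. That count was 0 in airway groups only and on leaving out X177, X119, X19 or X79, and 2 without X199 or without both X159 and X199. Myh7 was at 68.3, 72.8 and 64.7 CPM in X39, X59 and X179, the DEX libraries highest in cardiac muscle genes. Its range over all DEX libraries was 64.7 to 133.3 CPM. The cause of its rise was not tested. All 9 smooth muscle genes had a log2FC above 0 and none passed, with Tagln at 0.39 (adjusted p = 0.272). No member of the skeletal muscle, cartilage, thyroid, adipose, Schwann cell, squamous, endothelial, clock or immediate early lists passed. The clock genes Tef and Nr1d2 varied widely within both groups. Tef ranged from 77.85 to 209.3 CPM in HDM.CS and from 62.9 to 279.9 CPM in HDM.CS.DEX. X97 and X117 were the highest HDM.CS libraries in Tef and in Nr1d2. The highest DEX libraries in both genes were X59, X99, X119 and X139. The cause of this spread was not tested.

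Of 24 listed genes that glucocorticoids are known to induce, none rose at the time of collection and 1 fell, with a median log2FC of -0.11, and 17 of the 24 were below 0. Fkbp5, a chaperone that feeds back on the receptor, ranged from 39.8 to 60.7 CPM in HDM.CS (median 45.3) and from 35.3 to 83.2 CPM in HDM.CS.DEX (median 39.2), and the ranges overlapped widely (log2FC -0.12 ± 0.21 SE, adjusted p = 0.823). Tsc22d3, which encodes the anti-inflammatory protein GILZ, ranged from 84.9 to 213 CPM in HDM.CS (median 118.7) and from 59.1 to 95.6 CPM in HDM.CS.DEX (median 83.7). All DEX libraries were below the HDM.CS median, but it did not pass (log2FC -0.59 ± 0.23 SE, adjusted p = 0.101), and it passed when only the compared groups were fitted and with neighbouring codes as a block (adjusted p = 0.0497). Zbtb16, a transcription factor that steroids induce strongly in many cells, ranged from 7.57 to 47.1 CPM in HDM.CS (median 17.9) and from 4.88 to 27.96 CPM in HDM.CS.DEX (median 7.15) and just missed the threshold (log2FC -1.21 ± 0.43 SE, adjusted p = 0.0562). It passed, with lower values after DEX, by edgeR and DESeq2, with library quality weights, when only the compared groups were fitted, with neighbouring codes as a block (adjusted p = 0.0225), without X159 and X199, and without X197, X37 or X159 alone. Ddit4, an inhibitor of mTOR signalling, ranged from 24.1 to 54.1 CPM in HDM.CS (median 35.7) and from 15.6 to 34.6 CPM in HDM.CS.DEX (median 25.3) and fell (log2FC -0.60 ± 0.15 SE, adjusted p = 0.00300). Sgk1, Dusp1, Klf9 and Per1 had log2FC of -0.11, -0.21, 0.054 and -0.30. The falls in the list were thus 3 with neighbouring codes as a block. With sets of 20 codes as a block they were 4, Glul included (adjusted p = 0.0328). Pnmt, which rose, is not on the list. The receptor gene Nr3c1 ranged from 143.8 to 194.7 CPM in HDM.CS (median 164.8) and from 134.9 to 186.8 CPM in HDM.CS.DEX (median 163.9) and did not pass (log2FC -0.042 ± 0.068 SE, adjusted p = 0.805). None of 10 genes of the receptor machinery passed, among them the chaperones Hsp90ab1 and Hsp90aa1 (log2FC -0.24, adjusted p = 0.439, and log2FC -0.28, adjusted p = 0.548). The time between the last dose and collection is not given in the sources used here, and its part in these values was not tested. Per1 was highest in X97 and X117 of HDM.CS and in X59, X99, X119 and X139 of HDM.CS.DEX. These libraries were also the highest of their groups in the clock genes Tef and Nr1d2. The part of that spread in the values of the glucocorticoid-induced genes was not tested.

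The core of the glucocorticoid response element was searched as ACANNNTGT, which reads alike on both strands, in the 250 bases before each start. It occurred in 10 of 289 windows of genes that rose (3.46%), in 36 of 916 of genes that fell (3.93%) and in 4.02% of the 12926 windows of tested genes. Among the 20 glucocorticoid-induced genes with a window, 2 held it, and the searched windows of Fkbp5, Tsc22d3, Ddit4 and Per1 did not. Only the window listed first for a gene was searched, out of 3 listed for Tsc22d3 and 2 for Per1.

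**Figure D4:**
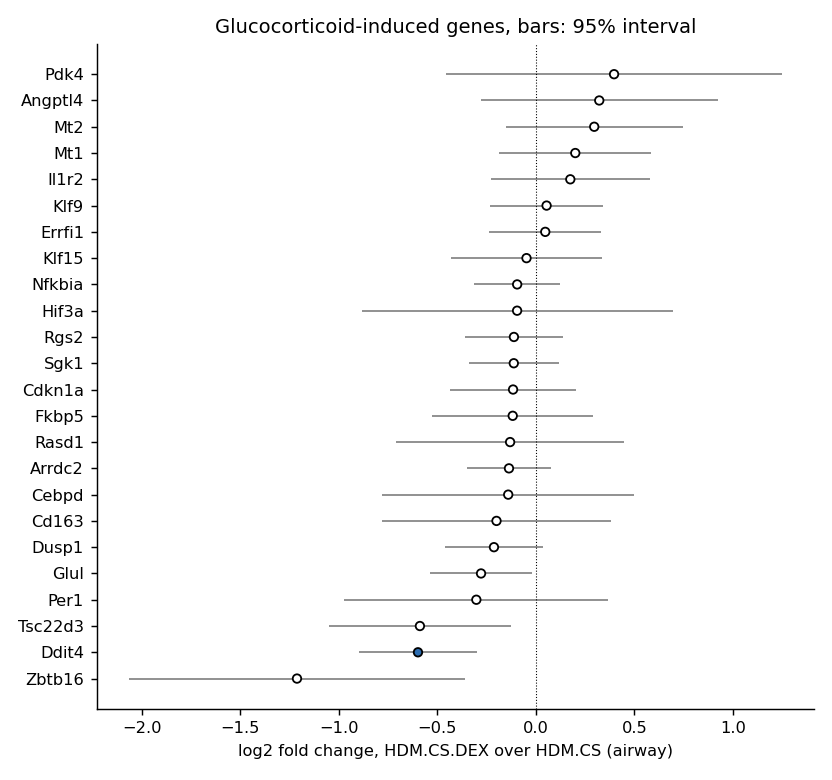
Each row is 1 of 24 genes known to be induced by glucocorticoids, with its log2 fold change of HDM.CS.DEX over HDM.CS and the 95% interval as a bar. The filled point, Ddit4, fell with a log2FC of -0.60, the open points did not pass, and Zbtb16 at -1.21 is the farthest from 0.

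Levels in mice never exposed give the background. Against PBS.AIR airways, 4600 genes were higher in HDM.CS (25.2% of all tested) and 4346 lower (23.8%). In HDM.CS.DEX 3972 were higher (21.8%) and 4055 lower (22.2%). These comparisons share the PBS.AIR libraries with each other, and each shares its exposed libraries with the DEX comparison, so the values are only set side by side. Slpi, a secreted protease inhibitor, had a log2FC of 5.15 in HDM.CS and 3.58 in HDM.CS.DEX. For Mmp12 the values were 5.23 and 4.26, and for Clec7a 2.94 and 2.21. All 3 genes passed as higher than PBS.AIR in both comparisons. The cell cycle list had a median of 1.02 in HDM.CS and -0.17 in HDM.CS.DEX, the B cell list 0.79 and -0.19, and the T cell list 0.72 and -0.036. Lipid-laden macrophage genes stood at 2.90 and 2.77, and neutrophil granule genes at 2.00 and 2.01. The erythroid list was at -0.20 in HDM.CS and -3.65 in HDM.CS.DEX.

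The DEX effect was then compared with that in HDM mice kept in air, tested as a difference of differences that shares no library. DEX moved 2929 genes down (16%) and 2282 up (12.5%) in HDM.AIR airways. The difference itself passed in 61 genes: in 50 (0.274%) the log2FC was higher in the smoke-exposed mice and in 11 (0.0603%) lower. Gstm1, a glutathione transferase, had a log2FC of 0.047 with smoke and 0.86 in air (difference -0.81 ± 0.15 SE, adjusted p = 0.00214). For Thra, a thyroid hormone receptor, the values were 0.23 and 0.75 (difference -0.52 ± 0.10 SE, adjusted p = 0.00507), and for Dpep1, a peptidase that also acts on leukotrienes, 0.48 and 1.83 (difference -1.36 ± 0.28 SE, adjusted p = 0.00777). In these 3 genes the log2FC was larger in air. Serpinb9b differed the other way, at 1.42 with smoke and -0.46 in air (difference 1.88 ± 0.37 SE, adjusted p = 0.00507). Neil1, a DNA glycosylase, and Etv4, an ETS transcription factor, had a lower log2FC in air (differences 0.62 ± 0.12 SE, adjusted p = 0.00507, and 2.09 ± 0.42 SE, adjusted p = 0.00507). Of the glucocorticoid-induced genes Dusp1, a phosphatase that restrains MAP kinases, was the member that differed, at -0.21 with smoke and 0.62 in air (difference -0.83 ± 0.18 SE, adjusted p = 0.0124). In HDM.AIR 5 of the 24 rose and 2 fell, in PBS.AIR none rose and 4 fell, and in HDM.CS parenchyma none rose and 3 fell. Within PBS.AIR, Fkbp5 was at 49.9 to 68.7 CPM in X125, X145, X165 and X185 and at 15.6 to 22.3 CPM in the others. Per1 was split at the same libraries, at 70.3 to 100.3 CPM and at 16.0 to 36.5 CPM. The part of this spread in the PBS.AIR counts was not tested. The rises in HDM.AIR include Klf15 at 0.90 (adjusted p = 6.29e-04), whose difference did not pass (-0.95 ± 0.29 SE, adjusted p = 0.113). For Mki67 the log2FC was -1.48 with smoke and -2.23 in air, and this difference did not pass either (0.75 ± 0.31 SE, adjusted p = 0.306). With neighbouring codes as a block, the difference passed upward in 88 genes and downward in 20. Genes with a higher value with smoke were 0.0822% of those tested without X159 and 0.482% without X119.

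In PBS.AIR airways DEX moved 1465 genes up (8.03%) and 1251 down (6.85%). The difference from that effect passed in 68 genes, with 56 (0.307%) lower and 12 (0.0658%) higher in the HDM.CS mice. For Gpr55 the log2FC was -1.05 with HDM and smoke and 0.29 without (difference -1.34 ± 0.20 SE, adjusted p = 6.45e-06). Slpi was at -1.58 and 0.22 (difference -1.79 ± 0.32 SE, adjusted p = 5.52e-04), and Edem1, which directs misfolded proteins to degradation, at -0.50 and 0.22 (difference -0.72 ± 0.12 SE, adjusted p = 3.06e-04). All 3 were higher in HDM.CS than in PBS.AIR, by a log2FC of 2.27, 5.15 and 1.63. Osbpl10, an oxysterol-binding protein, and Gpr155, a cholesterol sensor of lysosomes, fell with DEX in PBS.AIR and did not pass here (differences 0.71 ± 0.14 SE, adjusted p = 0.00131, and 1.24 ± 0.26 SE, adjusted p = 0.00524). Itm2a, a membrane protein of T cells and cartilage, was at 0.42 and -0.24 (difference 0.66 ± 0.14 SE, adjusted p = 0.00831). Genes with a lower value were 0.0822% of those tested without X59 and 0.669% without X199.

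In the parenchyma of HDM.CS mice, the tissue around the airways, DEX moved 985 genes down (5.4%) and 449 up (2.46%). No gene passed the test of the difference between tissues by limma-voom, 0 (0%) in either direction, with 371 genes at an unadjusted p under 0.05, 0 passing by edgeR (467 at an unadjusted p under 0.05) and 1 by DESeq2. With neighbouring airway and parenchyma codes as a block 2 genes passed, BC030867 (difference -1.72, adjusted p = 0.0174) and Ccne2 (difference -1.04, adjusted p = 0.0471), the log2FC with DEX of each being lower in airway, and 985 genes had an unadjusted p under 0.05. A p that misses the threshold does not show that the effects were alike. The smallest unadjusted p-values belonged to BC030867, Ccne2 and Mybl2, the latter both cell cycle regulators, with log2FC of -1.60, -1.11 and -0.94 in airway and 0.11, -0.069 and -0.21 in parenchyma, and in the other direction to Lenep, Cabp1 and Gm7030, all with medians below 1 CPM in both airway groups. BC030867 was as weakly expressed, with at most 1.01 CPM in any HDM.CS airway library and 0.614 CPM in any HDM.CS.DEX airway library. For the erythroid list the median was -3.44 in both tissues, for Flt3 the log2FC was -1.65 and -1.81, and for Il17f -1.79 and -1.80.

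**Figure D5:**
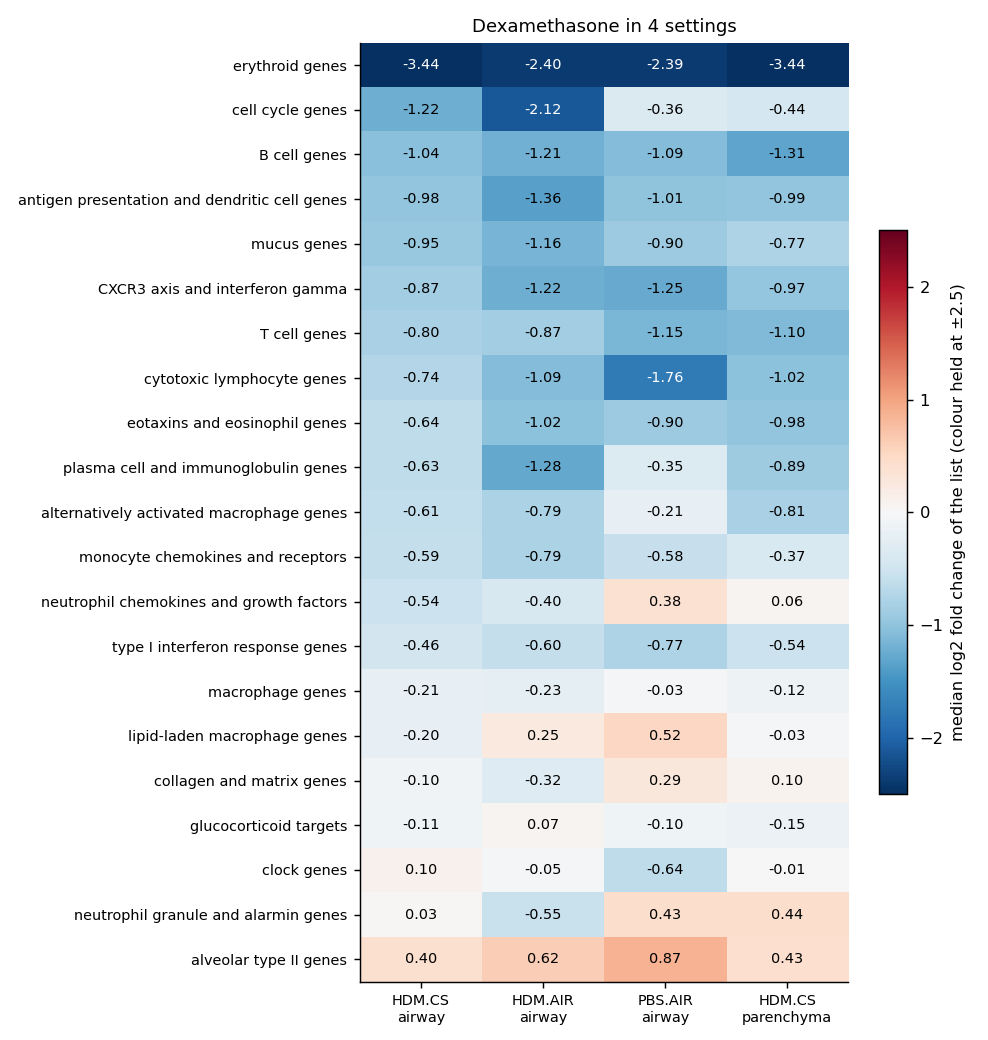
Rows are gene lists and columns are the 4 settings in which mice with and without DEX were compared, and each cell gives the median log2 fold change of the list, with the colour scale held at ±2.5. Erythroid, B cell and dendritic cell lists are below -0.9 in all 4 columns, whereas the cell cycle list runs from -2.12 in HDM.AIR airways to -0.36 in PBS.AIR airways, and differences between columns were not tested for lists.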

How the data were processed

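The table deposited by the authors holds estimated counts per gene for 203 libraries of 100 bp single reads, of which 20 were compared here, all 160 at 11 weeks were fitted and no column lacked a sample. The sources name bcl2fastq 2.20.0.422, STAR 2.5.1b to mm10, GENCODE M21, RSEM 1.2.31 and kallisto 0.44.0, and do not say which tool made the table. Of 43346 gene identifiers, 42462 matched M21 without and 23106 with their version. Of the non-zero estimated counts 20.3% were not whole (tolerance 1e-06), and all were rounded before every fit, limma-voom included. Totals were 13003154 to 40240733 at 11 weeks.

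Genes were kept if 9 or more libraries reached the CPM to which 10 counts correspond at the median depth. TMM, voom and limma 3.58.1 (R 4.3.3) were fitted with 1 mean for each of 16 groups, with 2-sided tests and Benjamini-Hochberg adjustment over all genes, and differences between DEX effects as contrasts. Alternatives used edgeR 4.0.16 (quasi-likelihood), DESeq2 1.42.0, its size factors, quality weights, other filters, fewer groups, and each library left out in turn. The steps were tested on simulated data. The labels name no mouse, but codes run in 10 sets of 20 with each group once per set and airway beside parenchyma. In HDM.CS the deviations of neighbouring airway and parenchyma libraries from their group means correlated across genes in 10 of 10 pairs (r from 0.221 to 0.482), and in HDM.CS.DEX likewise (0.206 to 0.541). A fit with these pairs as a block (limma duplicateCorrelation, correlation 0.349) was therefore added after seeing the data. No pair of libraries within a group was a duplicate, the lowest chi-square per degree of freedom being 17.0. Named were the 8 largest rises and falls with a mean of at least 1 CPM in either group, the 5 smallest p-values per direction, up to 4 members of each list that passed (or the 2 most abundant), the glucocorticoid-induced genes, the genes followed by the study around Spi1 and the 3 smallest p-values per direction of each difference (141 genes). The members and the 47 lists were chosen with earlier results of these data known. Other members that did not pass, such as Cdc20, Zbtb46, Cd8a, Ccl2 and Cxcl1, were named after their values were seen. Promoter windows came from RefSeq (GRCm38.p6), matched by symbol, with only the window listed first for each symbol used. A few genes that entered the counts are not reported by name here.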

Additional observations from a re-analysis of the deposited data

Results flagged for a closer look

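Of 282 groups of 10 libraries examined, 14 held a highest or lowest library standing apart from the others by Dixon's criterion, where chance gives about 1 in 20, and 5 of the 14 were X159 and 2 were X199. Among the DEX libraries, X159 was highest in Aurkb at 4.32 CPM, in Rrm2 at 15.6 CPM, in Ccne2 at 3.80 CPM and in Tnc at 69.8 CPM, and lowest in Gata3 at 2.25 CPM. X199 was lowest in Adprhl1 at 0.217 CPM and in Ifng at 0.217 CPM. X39 was lowest in Cd36 at 1101 CPM and in Prx, listed here with the Schwann cell genes, at 64.1 CPM. By level alone X39 was also lowest in the endothelial genes Cdh5 at 178.6 CPM and Pecam1 at 310.7 CPM. It was highest in the Schwann cell gene Mbp at 67.2 CPM. X79 was lowest in Clca1 at 0.0906 CPM, where the next library was at 1.14 CPM. X99 was highest in Dntt at 0.0400 CPM, where the other DEX libraries were at 0. Among the HDM.CS libraries, X57 was lowest in Tff2 at 15.5 CPM and in Ccl8 at 22.4 CPM, and X97 was highest in Wnt9a at 9.00 CPM.

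The 12 genes with the smallest p-values of a difference from the DEX effect in another airway exposure, 3 in each direction, passed by limma-voom. Compared with HDM.AIR the log2FC was higher by 1.88 in Serpinb9b, 0.62 in Neil1 and 2.09 in Etv4, and the difference was -0.81 in Gstm1, -0.52 in Thra and -1.36 in Dpep1. Compared with PBS.AIR it was higher by 0.71 in Osbpl10, 1.24 in Gpr155 and 0.66 in Itm2a, and the difference was -1.34 in Gpr55, -0.72 in Edem1 and -1.79 in Slpi.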

How the results depend on the processing

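A count of genes that passed was taken to have moved where the number of genes changed by over 1.5 times, and each is given here as a share of the genes tested in that fit, which a filter also changes. The numbers that fell (7.05%) and rose (2.25%) with DEX stayed within 1.5 times under edgeR, DESeq2, DESeq2 size factors, no filter and fits of fewer groups. They moved with library quality weights (10.7% and 6.25%) and, for the falls, with a filter at 10 CPM (6.999% of fewer genes tested). Falls with a log2FC of at most -1 (1.93%) became 1.22% with that filter and 3.04% with quality weights. Rises with a log2FC of at least 1 (0.104%) became 0.00821% with that filter, 0.0666% in airway groups only, 0.0475% in the compared groups only, 0.114% without a filter and 0.192% with quality weights. Leaving out 1 library gave 5.81% to 7.44% falls, 1.62% to 2.79% rises, 1.59% to 2.28% falls of at least 1 and 0.0658% to 0.170% rises of at least 1 (lowest without X197, highest without X199).

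The shares of genes whose DEX effect differed between exposures were less stable. For a higher effect than in HDM.AIR (0.274%) the share was 0.483% in airway groups only, 0.0822% by edgeR, 0.148% without X159 and X199 and 0.0969% without a filter. For a lower effect (0.0603%) it was 0.133% in the compared groups only, 0.0234% without a filter and 0.115% with quality weights. Without 1 library these ran from 0.0822% to 0.482% and from 0.0274% to 0.0986%. In counts, genes higher were 32 without X137, 86 without X157, 29 without X177, 23 without X197, 25 without X57, 88 without X119, 15 without X159 and 21 without X39, and genes lower were 6 without X177, 7 without X197, 17 without X37, 6 without X57, 5 without X159, 7 without X39 and 18 without X79. For a higher effect than in PBS.AIR (0.0658%) the share was 0.197% by DESeq2, 0.0111% in airway groups only, 0.0285% in the compared groups only, 0.143% without X159 and X199 and 0.247% with quality weights. For a lower effect (0.307%) it was 0.295% at 10 CPM, 0.619% by DESeq2, 0.0888% in airway groups only, 0.0741% in the compared groups only, 0.702% without X159 and X199, 0.124% without a filter and 0.701% with quality weights. Without 1 library these ran from 0.0274% to 0.0986% (5 genes without X157 or X139, 6 without X57 or X59, 7 without X197 or X77) and from 0.0822% to 0.669% (lowest without X59, highest without X199). The share that differed upward from parenchyma was 0.00548% by DESeq2, 1 gene, and 0% to 0% without 1 library. The cause of these moves was not tested. The numbers of genes higher or lower in HDM.CS or in HDM.CS.DEX than in PBS.AIR stayed within 1.5 times under the alternatives run for them, which left out no library.

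The log2FC of some genes that did not pass turned sign. It became 0.71 by DESeq2 and 0.70 by edgeR for Acan, 0.41 and 0.40 for Ucp1, 0.018 and 0.0039 for Scgb3a1, 0.019 and 0.010 for Krt15, 0.15 and 0.13 for Etv4, and 0.073 and 0.062 for Hif3a. It became -0.011 for Tg, -0.029 for Errfi1 and 0.014 for Arrdc2 without X159 and X199, and -0.0078 for Mbp, 0.047 for Scgb1a1 and 0.063 for Cdh5 with quality weights. Leaving out 1 library gave ranges across 0, from -0.00049 to 0.35 for Nr1d2, -0.53 to 0.19 for Acan, -0.18 to 0.040 for Calca, -1.33 to 0.25 for Ucp1, -0.0024 to 0.031 for Mbp, -0.24 to 0.46 for Krt4, -0.13 to 0.038 for Scgb1a1, -0.30 to 0.097 for Krt15, -0.13 to 0.020 for Cdh5, -0.0079 to 0.27 for Junb, -0.20 to 0.081 for Etv4, -0.0098 to 0.17 for Gpr155, -0.090 to 0.017 for Klf15, -0.26 to 0.021 for Cebpd, -0.012 to 0.28 for Il1r2 and -0.33 to 0.0043 for Hif3a. Of the differences named, Neil1 did not pass when only the compared groups were fitted, nor Gpr155 in airway groups only or the compared groups only. The set without X159 and X199 was chosen after seeing the data. In the other 6 groups neighbouring codes correlated less (lowest r 0.00435, best with their own neighbour in 5 to 8 of 10). With neighbouring codes as a replicate block the differences from HDM.AIR became 0.482% higher and 0.110% lower, and 0.0110% differed downward from parenchyma. Of the named results, the calls given beside them in the text were the ones this block changed. Between HDM.CS and HDM.CS.DEX, libraries of the same set of 20 codes were not shown to be paired. There r ran from -0.242 to 0.434 (median 0.0615), with 2 of 10 best with their own set. Libraries of a set correlated more with and without DEX in HDM.AIR airways (median r 0.159) and in PBS.AIR airways (median r 0.297). In each of these, 4 of 10 were best with their own set. What the sets stand for was not tested. With sets as a replicate block 3.30% rose and 8.38% fell, and the differences became 0.449% and 0.186% against HDM.AIR and 0.153% and 0.767% against PBS.AIR. The log2FC of Etv4 became 0.0068 and of Hif3a 0.085. That fit also called Spi1, Ptafr, Glul, Tsc22d3 and Zbtb16 lower with DEX (adjusted p = 0.0270, 0.0490, 0.0328, 0.0124 and 0.0207). In it Adprhl1 no longer passed (adjusted p = 0.0596). Both blocks were chosen after seeing the data. At these depths genes with few reads, such as Slc4a1, Pnmt and Dntt, have wide errors.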
